A study of Mus musculus with 11 samples.

Results

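The genes of respiratory complex I were examined in RPE/choroid (the retinal pigment epithelium with the vascular layer beneath it) of aged C57BL/6J mice. Every gene of the count table whose symbol begins with Nduf was taken, which gave 42 of 14602 genes; 41 of them are described singly, and counts and medians cover all 42. They comprised 7 core subunits, 29 accessory subunits, 4 assembly factors, and Ndufa4 and Ndufa4l2, which carry the symbol but are placed with complex IV. Another 5 complex I genes were listed under older names, were not found by symbol, and are given apart. The subunits encoded by mitochondrial DNA were not analysed here.

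The 6 naïve control libraries came from untreated C57BL/6J mice aged 12 months, and the 5 laser treated libraries from C57BL/6J mice of that age whose eye had received the 2RT nanosecond laser at 9 months, 3 months before collection. The study describes groups of equal size, and any further laser treated sample was not analysed here. The question was whether the laser left a lasting difference in RPE gene expression. The laser was applied as spots to 1 eye, so each laser treated sample held treated and untreated tissue. Both groups were wildtype, and the fellow eyes were not analysed here. RNA was pre-amplified with a SmartSeq v4 kit, a method for small amounts of input. The labels do not say whether a library came from 1 animal, and p-values therefore measure the spread between these libraries, which may be partly technical.

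Total counts ranged from 25700881 to 38755994 per library. RPE genes were plentiful: Rpe65, the retinoid isomerase of the visual cycle, was at 12600.5 CPM in naïve control and 11057 CPM in laser treated samples, where CPM are counts scaled to library size with TMM factors. The 14 photoreceptor markers summed to between 7076 and 28701 CPM in naïve control and between 5093 and 21206 CPM in laser treated libraries, so photoreceptor transcripts were present in both groups. Assembled transcript files carried a label, R1 (3 naïve control and 2 laser treated libraries) or R2 (3 and 3), whose meaning is not given, and differences are also given within each label. With bulk tissue, fewer cells of a type and less RNA per cell cannot be told apart.

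Complex I is the entry point of the respiratory chain. It takes electrons from NADH at the tip of its matrix arm (the N module), passes them along iron-sulfur clusters to ubiquinone (the Q module), and couples this to proton pumping by its membrane arm. Core subunits carry out the catalysis, accessory subunits surround and stabilise them, and assembly factors join the modules but are absent from the finished enzyme. The RPE is known for its reliance on mitochondrial oxidation, which spares glucose for the photoreceptors.

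Promoter windows were looked up for the 41 genes described singly. RefSeq windows on GRCm38.p6 (250 bases before to 50 after the start) were found for 37 of them. They were searched on both strands for the letters of a nuclear respiratory factor motif (NRF1, GCGCANGCG), an ETS family motif (CCGGAAG) and a YY1 motif (AANATGGCG), factors known to act at promoters of respiratory genes. NRF1 letters were present in 9 of 37 genes (24.3%) against 7.03% of all 27025 genes with a window. ETS letters were present in 5 (13.5%) against 9.93%, and YY1 letters in 7 (18.9%) against 2.76%. The genes compared with were not matched for GC content and not limited to those of the count table. Of the NRF1 matches, 8 were in the 27 accessory subunits and 1 in the 4 assembly factors with a window. There were 0 in the 5 core subunits with a window, of 6 core subunits looked up. Matches to different motifs did not overlap. The last 120 bases before the start are shown, 5′ to 3′ on the gene's strand with matches in capitals, for genes with an NRF1 match in 2 classes (Ndufb4, Ndufa5 and Ndufaf4), a core subunit with an ETS match (Ndufs3), and 3 genes on which the comparison below turns and which hold no match in this stretch (Ndufb6, Ndufv2 and Ndufv1).
Ndufb4: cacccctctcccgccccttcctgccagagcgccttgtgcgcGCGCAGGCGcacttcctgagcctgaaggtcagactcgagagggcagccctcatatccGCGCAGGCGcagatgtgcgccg
Ndufa5: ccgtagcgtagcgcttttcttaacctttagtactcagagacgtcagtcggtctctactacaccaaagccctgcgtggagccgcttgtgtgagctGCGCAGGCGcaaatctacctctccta
Ndufaf4: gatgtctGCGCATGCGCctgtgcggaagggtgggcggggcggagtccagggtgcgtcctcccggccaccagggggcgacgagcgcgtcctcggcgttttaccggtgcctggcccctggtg
Ndufs3: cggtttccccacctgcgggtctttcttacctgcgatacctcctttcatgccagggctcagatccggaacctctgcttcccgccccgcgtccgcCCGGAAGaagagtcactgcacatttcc
Ndufb6: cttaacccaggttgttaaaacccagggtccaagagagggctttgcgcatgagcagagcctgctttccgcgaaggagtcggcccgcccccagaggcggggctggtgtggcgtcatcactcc
Ndufv2: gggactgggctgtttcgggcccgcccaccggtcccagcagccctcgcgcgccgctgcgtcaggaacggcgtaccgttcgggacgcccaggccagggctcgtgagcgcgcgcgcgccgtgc
Ndufv1: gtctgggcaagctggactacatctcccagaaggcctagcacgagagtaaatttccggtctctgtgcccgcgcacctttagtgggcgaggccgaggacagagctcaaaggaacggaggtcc

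These stretches lie at chr16:37654369-37654488 (Ndufb4), chr6:24527691-24527810 (Ndufa5, the upper of 2 windows), chr4:24897963-24898082 (Ndufaf4, plus strand), chr2:90904722-90904841 (Ndufs3), chr4:40279422-40279541 (Ndufb6), chr17:66101560-66101679 (Ndufv2) and chr19:4012756-4012875 (Ndufv1), on the minus strand unless stated. Counted back from the start, Ndufb4 has NRF1 letters from -79 to -71 and again nearer the start, Ndufa5 from -26 to -18, and Ndufaf4 from -113 to -105, where the next base begins a match on the other strand. A match is a description of these letters, not of a bound site.

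Compared per kilobase of transcript, the complex I genes found by the Nduf symbol spanned, in naïve control samples, from 21.4 ± 5.54 CPM per kb (SD, n = 6) for Ndufaf4 to 1032 ± 275 for Ndufb6. Of those under older names, Ndufaf6 (10.5 ± 0.749), Ndufaf7 (15.6 ± 3.59) and Ndufaf5 (20.4 ± 7.66 CPM per kb) had lower means than Ndufaf4. Ndufa4 lay above them all at 2498 ± 662 CPM per kb and Ndufa4l2, a paralogue known to be induced by hypoxia, below them all at 1.32 ± 0.824. After Ndufb6 came other small membrane arm subunits, Ndufa1 at 1022 ± 338 and Ndufc2 at 942 ± 247 CPM per kb, and these 3 levels did not differ beyond their spread. Among 6 core subunits the order was Ndufv2 (362 ± 39.3), Ndufs7 (207 ± 15.2), Ndufs8 (164 ± 4.93), Ndufv1 (97.7 ± 6.62), Ndufs3 (88.0 ± 9.74) and Ndufs1 (49.3 ± 6.17), in CPM per kb. The neighbours Ndufv1 and Ndufs3 overlapped in their spread. The 4 assembly factors, at 21.4 to 32.9 CPM per kb, were among the 6 lowest of those found by symbol, together with Ndufa8 and Ndufa6. TPM were summed from the assembled transcripts, which held 1 exon each, where these could be assigned to 1 gene. They put the 42 genes in a partly different order (Spearman's rho 0.485 across genes, a description). Ndufa4 and Ndufb6 were first in both, but Ndufa1 ranked 27. By control TPM the 6 core subunits ran Ndufs8 (138 ± 84.6), Ndufv1 (106 ± 36.1), Ndufs3 (95.1 ± 38.6), Ndufs1 (76.8 ± 19.6), Ndufv2 (72.6 ± 46.8) and Ndufs7 (28.2 ± 7.93). The core order by CPM per kb thus did not hold by TPM.

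**Figure D1:**
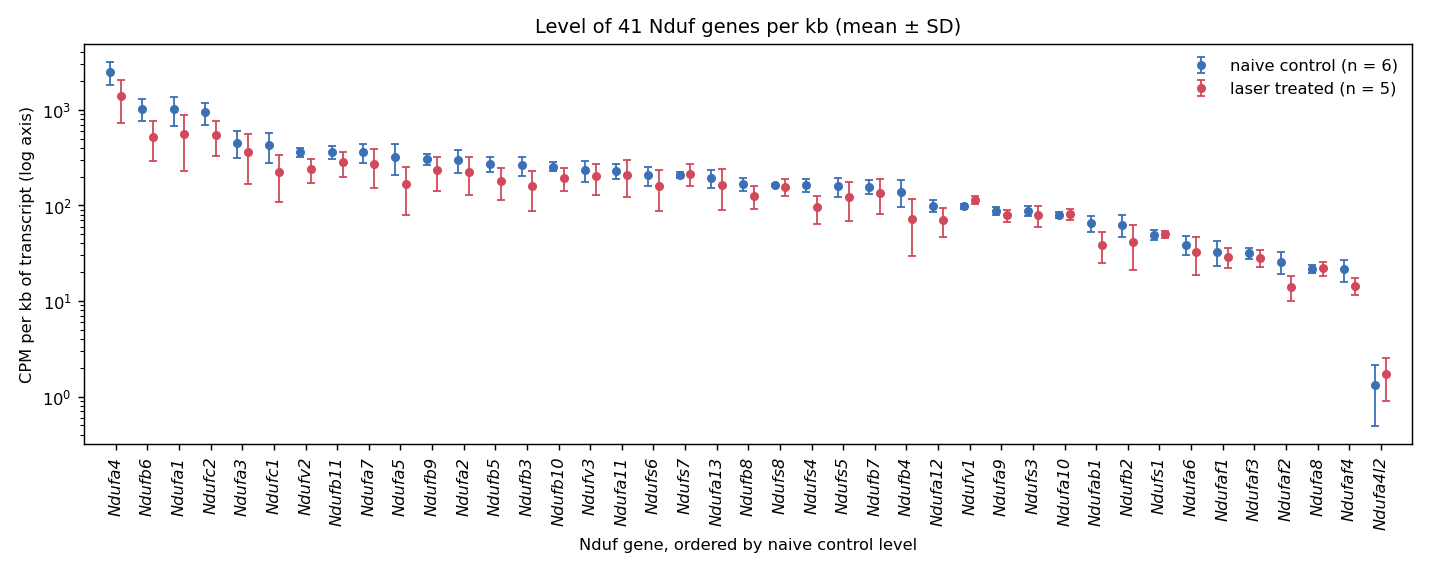
Mean level of 41 Nduf genes in CPM per kilobase of transcript on a log axis, ordered by the naïve control level, with bars of 1 SD (naïve control n = 6, laser treated n = 5). Ndufa4 is highest, Ndufb6, Ndufa1 and Ndufc2 follow, and the assembly factors lie at the low end with Ndufa8, Ndufa6 and Ndufa4l2.

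After laser, most accessory subunits and assembly factors had lower mean levels while core subunits lay on both sides of 0, but no gene passed the adjusted threshold. Of the 42 Nduf genes, 0 had an adjusted p under 0.05 in edgeR's quasi-likelihood test, as did 0% of all genes tested, and the smallest adjusted p among them was 0.17, for Ndufs4. At an unadjusted p under 0.05, 18 Nduf genes were lower (42.9%, against 7.68% of all genes tested) and 1 was higher (2.38%, against 8.24%). These unadjusted calls were 1 core subunit, 14 accessory subunits, 2 assembly factors and Ndufa4 on the lower side, and the core subunit Ndufv1 on the higher side. The log2 fold change was below 0 for 35 of the 42 genes, against 51.5% of all genes. DESeq2 gave 8 Nduf genes an adjusted p under 0.05, all lower (19.0%, against 1.79% of all genes), namely Ndufb6, Ndufs4, Ndufab1, Ndufv2, Ndufa4, Ndufc2, Ndufa5 and Ndufc1.

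By class, the median log2 fold change was 0.015 for the 7 core subunits, -0.40 for the 29 accessory subunits and -0.37 for the 4 assembly factors, beside a median of -0.019 over all 14602 genes. Of the core subunits 3 lay below 0, of the accessory subunits 27 and of the assembly factors 4. Their ranges were -0.59 to 0.23 for core, -0.97 to 0.026 for accessory subunits, and -0.88 to -0.18 for assembly factors. These are descriptions of the classes, and no test was made over their members.

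**Figure D2:**
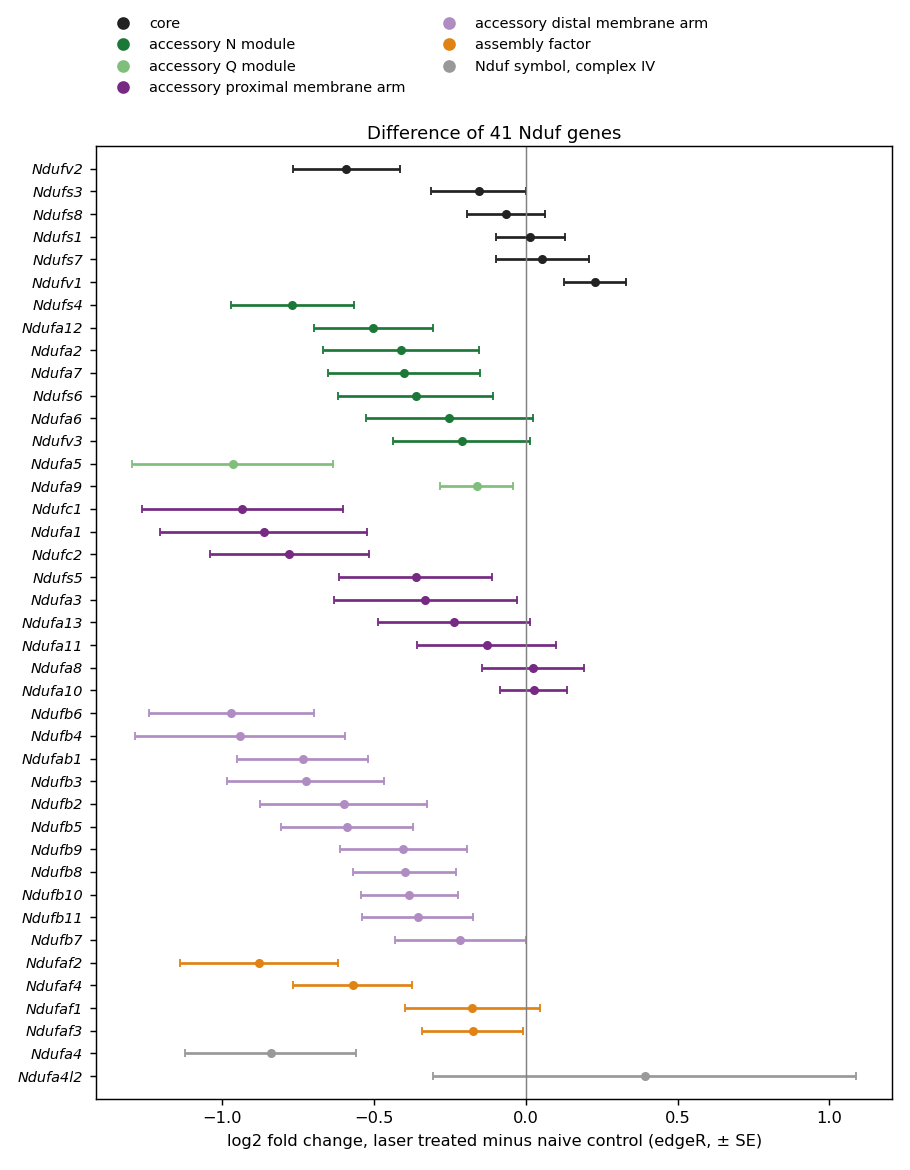
Log2 fold change of 41 Nduf genes, laser treated minus naïve control, with bars of 1 standard error derived from edgeR's test, coloured by class. The drawn core subunits other than Ndufv2 lie between -0.16 and 0.23, whereas 27 of 29 accessory subunits and 4 of 4 assembly factors lie below 0, and no gene passes the adjusted threshold.

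The flavoprotein part of the N module held both ends of the core class. Ndufv1, which binds the flavin that accepts electrons from NADH (chromosome 19, 4007384 to 4012806), ranged from 137 to 166 CPM in naïve control libraries with a median of 150, and was at 152, 182, 195, 187 and 163 CPM in laser treated libraries 1 to 5. All 5 laser treated values lay above the control median, and 2 of them lay inside the control range. The log2 fold change was 0.23 (SE 0.10, edgeR adjusted p = 0.30), with 0.25 within R1 and 0.23 within R2. Ndufv2, its iron-sulfur partner (chromosome 17, 66078638 to 66101559), ranged from 414 to 542 CPM with a median of 474 in naïve control, and was at 357, 318, 276, 191 and 435 CPM after laser. Only laser treated library 5 reached the control range. The group means of Ndufv2 were 475 ± 51.5 and 315 ± 91.0 CPM (SD, n = 6 and 5), and the log2 fold change was -0.59 (SE 0.18, edgeR adjusted p = 0.18, DESeq2 adjusted p = 0.035), with -0.51 within R1 and -0.59 within R2. Ndufs1, the iron-sulfur subunit that carries electrons onward from them, ranged from 111 to 156 CPM (median 125) in naïve control and was at 138, 146, 121, 119 and 130 CPM after laser, so that every laser treated value lay inside the control range. Its log2 fold change was 0.015 (SE 0.11, edgeR adjusted p = 0.97).

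In the Q module, 3 core subunits had values that overlapped between groups. Ndufs7, which holds the last iron-sulfur cluster before ubiquinone, ranged from 161 to 196 CPM (median 182) in naïve control and was at 208, 171, 164, 132 and 262 CPM after laser, with values on either side of the control range. Ndufs8, another iron-sulfur subunit, ranged from 146 to 159 CPM (median 154), and was at 165, 152, 129, 108 and 182 CPM. Ndufs3, which has no cluster of its own, ranged from 81.2 to 109 CPM (median 90.05), and was at 107, 80.4, 65.3, 62.0 and 98.5 CPM. The log2 fold changes of Ndufs7, Ndufs8 and Ndufs3 were 0.055 (SE 0.15), -0.065 (SE 0.13) and -0.16 (SE 0.16), with edgeR adjusted p of 0.91, 0.87 and 0.70. For Ndufs7 and Ndufs8 the controls varied little (SD 13.3 and 4.62 CPM, n = 6) and the laser treated libraries more (SD 49.4 and 29.3 CPM, n = 5).

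**Figure D3:**
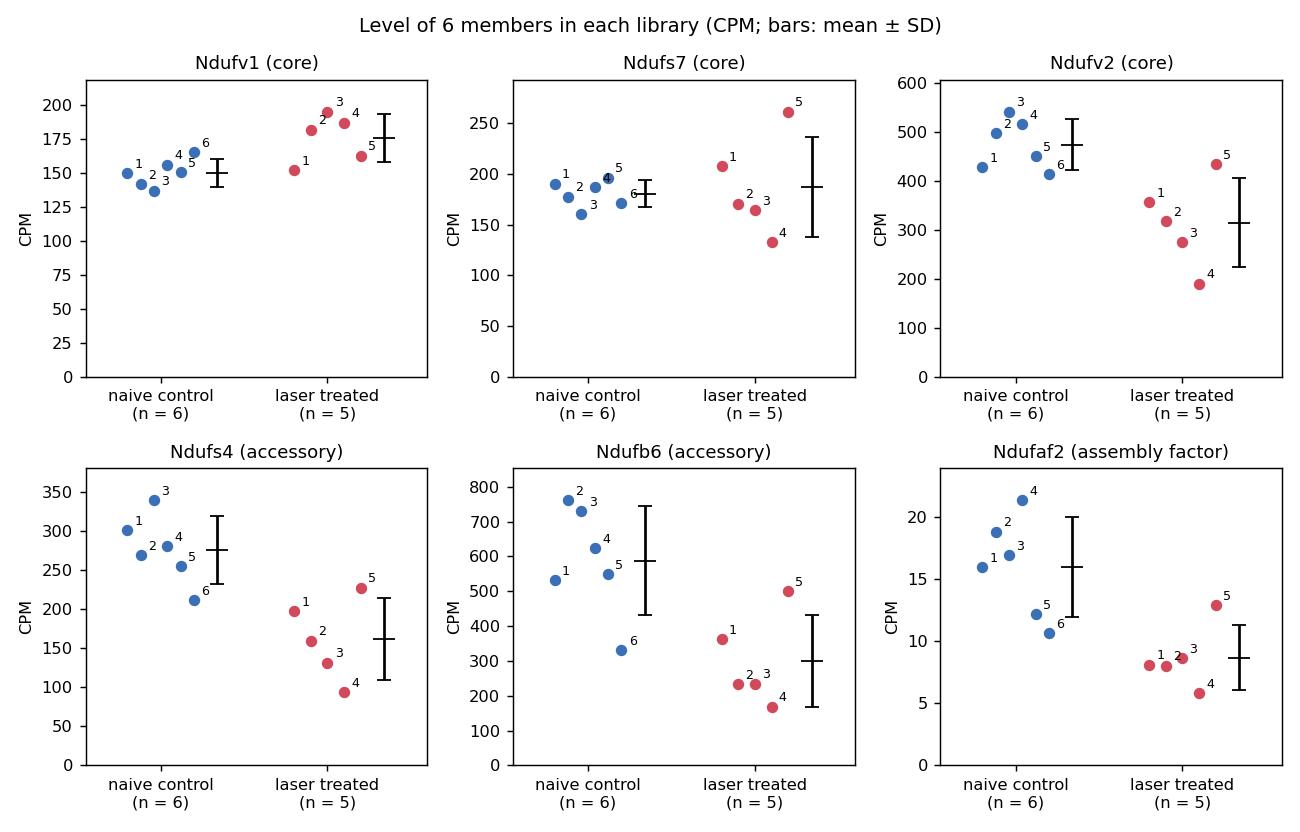
CPM in each library, numbered by replicate, for 3 core subunits (Ndufv1, Ndufs7, Ndufv2), 2 accessory subunits (Ndufs4, Ndufb6) and the assembly factor Ndufaf2, with bars for the mean ± SD (naïve control n = 6, laser treated n = 5). For Ndufv2, Ndufs4, Ndufb6 and Ndufaf2, laser treated libraries 1 to 4 lie low and library 5 lies within the control range; for Ndufv1 and Ndufs7 the laser treated mean is the higher, and Ndufs7 spreads more widely after laser.

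Among accessory subunits of the N module, 7 of 7 had a log2 fold change below 0 (median -0.40), 2 of them at an unadjusted p under 0.05. Ndufs4, a stabiliser of the N module whose loss in mice is a model of Leigh syndrome (chromosome 13, 114287795 to 114388258), had the smallest p of all members. It ranged from 211 to 340 CPM (median 275) in naïve control and was at 197, 160, 132, 93.9 and 228 CPM after laser. Laser treated library 5 alone entered the control range, above naïve control 6 at 211 CPM. The means were 276 ± 43.3 and 162 ± 52.6 CPM (SD, n = 6 and 5), and the log2 fold change was -0.77 (SE 0.20, edgeR adjusted p = 0.17, DESeq2 adjusted p = 0.016), with -0.74 within R1 and -0.70 within R2. The other called member, Ndufa12, had a log2 fold change of -0.50 (SE 0.20, edgeR adjusted p = 0.24), and the remaining 5 (Ndufa2, Ndufa7, Ndufs6, Ndufa6 and Ndufv3) lay between -0.41 and -0.21. The 2 accessory subunits of the Q module stood apart in size, Ndufa5 at -0.97 (SE 0.33, edgeR adjusted p = 0.21) and Ndufa9, which binds a nucleotide cofactor, at -0.16 (SE 0.12, edgeR adjusted p = 0.57). Within the labels Ndufa5 was at -1.38 in R1 and -0.42 in R2.

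In the distal part of the membrane arm 11 of 11 measured accessory subunits were below 0 (median -0.59), 8 of them at an unadjusted p under 0.05. Ndufb6 (chromosome 4, 40270591 to 40279421), the accessory subunit with the largest negative log2 fold change, ranged from 331 to 761 CPM (median 586) in naïve control and was at 363, 233, 234, 169 and 500 CPM after laser. Laser treated libraries 1 and 5 lay above naïve control 6, the lowest control, so the groups overlapped. Its log2 fold change was -0.97 (SE 0.27, edgeR adjusted p = 0.17, DESeq2 adjusted p = 0.016), with -1.15 within R1 and -0.71 within R2. Ndufb6 shares 39% of its exon bases with Smim27 on the opposite strand, and since the strand setting of the counting is not given, reads of these genes cannot be told apart. Ndufab1, the mitochondrial acyl carrier protein (chromosome 7, 122085403 to 122101886), ranged from 115 to 204 CPM (median 154) in naïve control and was at 115, 78.8, 73.8, 62.6 and 146 CPM after laser. Libraries 1 and 5 again reached the controls, and the log2 fold change was -0.73 (SE 0.22, edgeR adjusted p = 0.18, DESeq2 adjusted p = 0.031), with -0.79 within R1 and -0.61 within R2. Ndufab1 has 2 processed pseudogenes, 99.4% and 99.8% identical along 469 and 468 bases. Ndufb4, at -0.94 (SE 0.35), has Ndufb4c, identical along 390 bases. Such copies were found for 8 members, the others being Ndufa12, Ndufb3, Ndufb11, Ndufs3, Ndufs5 and Ndufs6. For the core subunit Ndufs3 the copy is 98.6% identical along 792 bases. The counts of these 8 are uncertain to that extent. Exons of 16 members overlap another gene, and Ndufb9 shares 28.55% of its exon bases with Gm49356 on the same strand.

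In the proximal membrane arm, next to the Q module, 7 of 9 accessory subunits were below 0 (median -0.33) and 3 had an unadjusted p under 0.05. These were Ndufc1 at -0.93 (SE 0.33), Ndufa1 at -0.86 (SE 0.34) and Ndufc2 at -0.78 (SE 0.26), with edgeR adjusted p of 0.22, 0.25 and 0.20. At the other end, Ndufa8 had a log2 fold change of 0.023 (SE 0.17). Ndufa10, a subunit with the fold of a nucleoside kinase and the highest log2 fold change of the accessory class, ranged from 148 to 178 CPM (median 163) in naïve control and was at 171, 197, 162, 137 and 158 CPM after laser, with a log2 fold change of 0.026 (SE 0.11, edgeR adjusted p = 0.94). The laser treated libraries lay both above and below the controls. Ndufs5, Ndufa3, Ndufa13 and Ndufa11 lay between -0.36 and -0.13, and of these Ndufa13 shares 29.98% of its exon bases with Tssk6 on the opposite strand.

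Of the assembly factors, Ndufaf2, a paralogue of Ndufa12 that is replaced by it late in assembly (chromosome 13, 108002715 to 108158623), ranged from 10.6 to 21.4 CPM (median 16.4) in naïve control and was at 8.09, 8.02, 8.62, 5.82 and 12.9 CPM after laser. Laser treated libraries 1 to 4 lay below every control. The log2 fold change was -0.88 (SE 0.26, edgeR adjusted p = 0.18), with -1.07 within R1 and -0.67 within R2, on the lowest counts of any complex I gene found by symbol, from 203 to 710 per library. Ndufaf4 and Ndufaf3 act together in building the Q module. Ndufaf4 ranged from 52.2 to 109 CPM (median 74.1) in naïve control and was at 58.7, 56.1, 45.1, 38.0 and 63.7 CPM after laser, all below the control median, with a log2 fold change of -0.57 (SE 0.20, edgeR adjusted p = 0.21). Ndufaf3 ranged from 40.3 to 58.2 CPM (median 46.6) in naïve control and was at 48.5, 40.9, 46.4, 27.7 and 46.9 CPM after laser. Ndufaf1, which works in the assembly of the membrane arm, ranged from 33.1 to 71.3 CPM (median 41.6) and was at 44.4, 53.4, 40.1, 25.6 and 41.9 CPM. For both, 4 of 5 laser treated libraries lay inside the control range, and their log2 fold changes were -0.18 (SE 0.17 for Ndufaf3 and 0.22 for Ndufaf1).

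The genes listed under older names had log2 fold changes below 0, with Ndufaf7 near 0. Ndufaf5 was at -0.82 (SE 0.28, edgeR adjusted p = 0.20), Ndufaf6 at -0.36 (SE 0.23), Ndufaf7 at -0.021 (SE 0.22) and Ndufaf8 at -0.28 (SE 0.27). Ndufaf7 was at 0.49 within R1, -0.42 within R2 and 0.21 with a GC trend removed, and Ndufaf8 at 0.074 with a length trend removed. With them the median of 8 assembly factors was -0.32. Ndufb1, an accessory subunit of the distal membrane arm, was at -0.92 (SE 0.38, edgeR adjusted p = 0.27). Of the 2 genes outside complex I, Ndufa4 ranged from 656 to 1551 CPM (median 1326) in naïve control and was at 782, 526, 507, 380 and 1186 CPM after laser. Libraries 1 and 5 lay within the control range, and the log2 fold change was -0.84 (SE 0.28, edgeR adjusted p = 0.20, DESeq2 adjusted p = 0.037). Ndufa4l2, on 7 to 89 counts per library, ranged from 0.284 to 2.21 CPM (median 1.13) in naïve control and was at 0.939, 2.42, 0.828, 1.49 and 2.40 CPM after laser, a log2 fold change of 0.39 (SE 0.70, edgeR adjusted p = 0.86).

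The accessory subunits varied together from library to library, and this variation was as wide as the difference between groups. As a class level, the mean over members of log2 CPM relative to each gene's mean over the 11 libraries was taken. Accessory subunits stood at 0.411, 0.431, 0.422, 0.406, 0.108 and -0.334 in naïve control libraries 1 to 6, and at -0.107, -0.431, -0.540, -0.845 and 0.479 in laser treated libraries 1 to 5. Naïve control 6 thus lay among the laser treated libraries and laser treated 5 above every control. Whether the labels of these 2 libraries are right cannot be told from the files, and every group difference given here depends on them. Laser treated 4 had the lowest CPM of all 11 libraries in 29 of 29 accessory subunits, laser treated 5 the highest of its group in 28, and naïve control 6 the lowest of its group in 26. Summed CPM of complex IV genes ran alike, at 3182, 3153, 3090, 3136, 2589 and 1631 in naïve control and 2163, 1611, 1503, 1281 and 3417 after laser. In complexes III and V these 3 libraries held the same places by summed CPM. In complex II naïve control 6 and laser treated 4 were not the lowest. For core subunits the controls lay between 0.0019 and 0.069 and the laser treated libraries between -0.316 and 0.170.

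Naïve control and laser treated means were 0.241 ± 0.308 and -0.289 ± 0.504 (SD, n = 6 and 5) for accessory subunits, 0.204 ± 0.267 and -0.245 ± 0.321 for assembly factors, and 0.031 ± 0.023 and -0.037 ± 0.194 for core subunits. The accessory level minus the core level was 0.210 ± 0.293 in naïve control and -0.252 ± 0.332 in laser treated samples. Its group difference was -0.462, -0.694 within R1 and -0.249 within R2. In naïve controls the median coefficient of variation of CPM was 7.36% for core genes and 22.1% for accessory genes, and after laser 19.9% and 41.1%. After removal of the group means, the median correlation over the 11 libraries was 0.92 for the 406 pairs of accessory subunits and 0.017 for the 21 pairs of core subunits, a description of values that share libraries. Ndufb3 followed the other accessory subunits most closely (r = 0.995 over 11 libraries), as did Ndufa4 of complex IV (r = 0.988). Ndufv1 ran opposite to them (r = -0.74), and Ndufa10 showed little relation (r = 0.079).

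**Figure D4:**
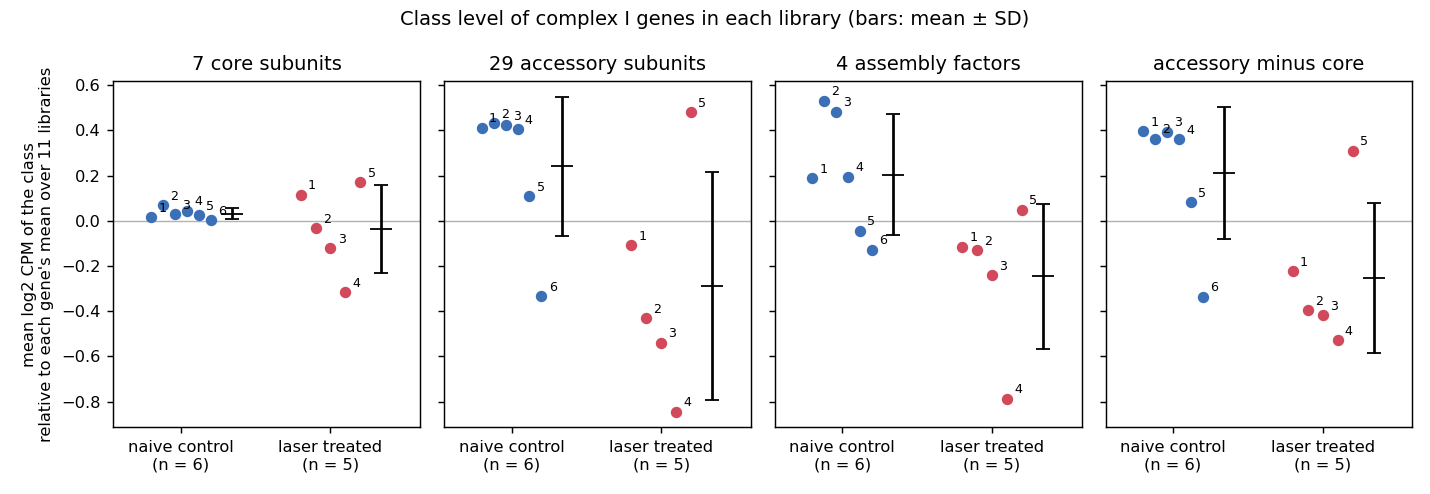
Level of each class in each library, numbered by replicate, as the mean log2 CPM of its genes relative to each gene's mean over 11 libraries, and the accessory level minus the core level, with bars for the mean ± SD (naïve control n = 6, laser treated n = 5). Accessory subunits spread from -0.845 to 0.479, with naïve control 6 among the laser treated libraries and laser treated 5 above all controls, while core subunits in naïve controls stay within 0.0019 to 0.069.

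**Figure D5:**
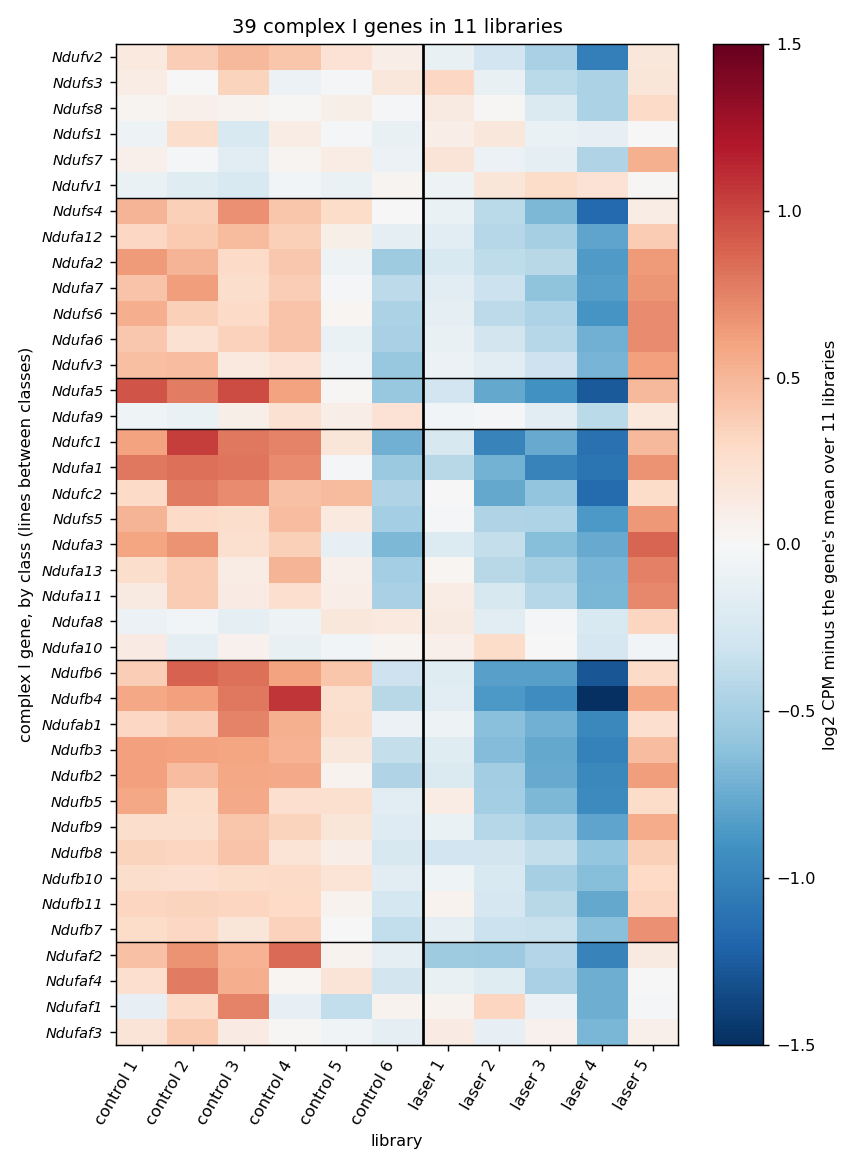
Log2 CPM of 39 complex I genes in each of the 11 libraries relative to the gene's mean (red above, blue below), with lines between the core class, the 4 accessory modules and the assembly factors and between the groups. Accessory rows share 1 pattern across libraries except Ndufa8, Ndufa9 and Ndufa10, and the core rows other than Ndufv2 do not show it as strongly.

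With these libraries included, 0 of the 42 genes had groups that did not overlap on the lower side, against 0.863% of all genes tested. Within R1, 25 Nduf genes were lower at an unadjusted p under 0.05 (59.5%, against 9.49% of all genes), and within R2, which holds both naïve control 6 and laser treated 5, 0 had an unadjusted p under 0.05 in either direction (against 6.22%). The median log2 fold change of accessory subunits was -0.64 within R1 and -0.24 within R2, that of core subunits 0.13 and -0.047, and that of assembly factors -0.43 and -0.22. Without both naïve control 6 and laser treated 5, a choice made after these values were seen and one that widens the difference by construction, 23 Nduf genes had an edgeR adjusted p under 0.05, all lower (54.8%, against 1.71% of all genes), of which 20 were accessory subunits, 1 was the core subunit Ndufv2, 1 was Ndufaf2 and 1 was Ndufa4. Without laser treated 5 alone, 30 genes had an unadjusted p under 0.05 (71.4%, against 17.7% of all genes), 0 had an adjusted p under 0.05, and the accessory median was -0.70.

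Transcript composition moved with the differences. Across the 40 complex I genes the log2 fold change and the transcript GC content correlated at r = 0.54 (Spearman's rho 0.59), and across 14253 genes at r = 0.38 (rho 0.47), correlations across genes, which are not independent replicates. Median GC content was 53.9% for core, 51.7% for accessory and 46.5% for assembly factor genes, and median transcript length 1312, 759 and 1450 bases. With a GC trend removed, 17 Nduf genes were lower at an unadjusted p under 0.05 (40.5%, against 3.39% of all genes), and the medians were -0.46 for accessory subunits and -0.17 for core subunits; Ndufv1 was then at 0.025 and Ndufv2 at -0.31. With a length trend removed, 16 were lower (38.1%, against 6.24%), and the medians were -0.17 and 0.12. The part of GC content and length in the differences was not tested.

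The other respiratory complexes were listed for comparison, with counts at an unadjusted p under 0.05 to be read against 7.68% lower and 8.24% higher of all genes tested. Complex III had a median log2 fold change of -0.30 over 8 genes (2 lower and 1 higher, with the smallest p for Uqcrb at -1.03, SE 0.32), complex IV of -0.43 over 10 genes (4 lower, 0 higher; Cox5a at -0.84, SE 0.24) and complex V of -0.35 over 15 genes (5 lower, 0 higher; Atp5f1 at -0.48, SE 0.15). Complex II, the succinate dehydrogenase, had a median of 0.070 over 4 genes, 0 of them with an unadjusted p under 0.05 (Sdhc at 0.12, SE 0.10). Of 11 further complex I assembly genes, 4 were lower and 2 higher at that level (median -0.13; Tmem126b at -0.57, SE 0.18). Of 13 genes of mitochondrial mass, such as import and outer membrane proteins, 2 were lower and 3 higher (median -0.11; Tomm40 at 0.36, SE 0.13), and of 9 nuclear regulators of respiratory genes 1 was lower and 1 higher (median 0.080; Tfam at -0.47, SE 0.19). In all of these lists 0 genes had an edgeR adjusted p under 0.05. DESeq2 gave an adjusted p under 0.05, in either direction, to 1 gene of complex III, 2 of complex IV and 3 of complex V. It gave this to 502 of all 14602 genes. Without both naïve control 6 and laser treated 5, edgeR called 4 of 8 complex III, 7 of 10 complex IV and 6 of 15 complex V genes. That choice was made after the values were seen, and it widens the difference by construction where genes vary alike. For all genes tested that count was 389. Complex II had 0 in both. The DESeq2 calls, made with all libraries, were thus not particular to complex I.

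Markers of other cells were set beside the accessory subunit levels. All 14 photoreceptor markers were detected in every library and 13 had a log2 fold change below 0 (median -0.35). Their sum was 21206 CPM in laser treated 4, with the lowest accessory level, and 5175 CPM in laser treated 5, with the highest. In the naïve controls it was 7076 CPM in library 6 and 28701 CPM in library 3. Blood markers (5 of 5 below 0) summed to between 60.7 and 404 CPM in naïve control and between 43.2 and 190 CPM in laser treated libraries. At 85.6, 78.9, 73.6, 43.2 and 190 CPM in laser treated libraries 1 to 5, they ranked in the order of the accessory levels, whereas naïve control 6, with the lowest accessory level of its group, was at 188 CPM and naïve control 3 at 60.7 CPM. Inner retina markers (8 of 8 below 0) summed to between 32.8 and 307 CPM in naïve control and between 43.7 and 146 CPM after laser. The 12 RPE markers summed to between 96019 and 133552 CPM in naïve control and between 79086 and 130418 CPM after laser. Within R1 and R2 the median log2 fold changes were -1.91 and 0.89 for photoreceptor markers and -1.85 and -0.026 for inner retina markers. For blood markers they were -1.46 and -0.43, and for RPE markers 0.31 and -0.24, beside -0.64 and -0.24 for accessory subunits. Skeletal muscle (9 of 10 above 0), endothelial (6 of 7), fibroblast (4 of 6), melanocyte (4 of 5) and macrophage (3 of 6) markers had median log2 fold changes of 0.42, 0.082, 0.39, 0.32 and -0.003. The part of these cell types in the accessory subunit levels was not tested.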

How the data were processed

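RNA of RPE/choroid in 6 naïve control and 5 laser treated libraries was pre-amplified and sequenced. The authors deposited raw counts of reads per gene for 14602 genes, unnormalized; the submitters' processing notes name STAR 2.5.3a, featureCounts 1.5.3 and StringTie 1.3.3 on mm10/GRCm38, and the strand setting is not given in the sources used here. The TPM of assembled transcripts were deposited by the authors for each library. These transcripts held 1 exon each, and only those that could be assigned to 1 gene were summed per gene. The authors' own fold changes, p-values and FDR were not used.

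Counts were compared with edgeR 4.0.16 (TMM, filterByExpr, which removed 0 genes, robust quasi-likelihood, Benjamini-Hochberg over all genes, threshold 0.05), tested first on simulated data. Total counts of 25700881 to 38755994 set the precision, given by each SE. The SE beside a log2 fold change is its absolute value divided by the square root of the F statistic of edgeR's test. CPM had 0.1 added before logs for class levels. Transcript length and GC content (14253 genes) came from GENCODE M21; near-identical copies were sought with BLAST 2.17.0, at 95% identity over 200 bases. Alternatives used DESeq2 1.42.0, limma 3.58.1 (voom, and log2 TPM with a pseudocount of 1 or 0.1), upper quartile scaling, other filters, loess trends (span 0.3), a replicate block, the labels, and each library left out. Members, lists and tests were chosen with earlier results of these data known. One member is not reported here by itself. Library values were given for the other core subunits, the 5 smallest p, the extremes of each class, Ndufa4 and Ndufa4l2.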

Additional observations from a re-analysis of the deposited data

Results flagged for a closer look

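In 5 of 92 groups of values examined, 1 library stood apart from its group by Dixon's criterion at 95%. The groups share the same libraries and many genes vary together, so the number cannot be set against a 5% rate for independent groups. Laser treated 5 was above the rest of its group for Ndufa1 (478 CPM, against 141 to 225 CPM in the other laser treated libraries), Ndufa3 (304 against 98.6 to 144 CPM), Ndufb7 (143 against 57.5 to 81.1 CPM) and Ndufb8 (262 against 137 to 169 CPM). Naïve control 6 was below its group for Ndufb10, at 146 CPM against 187 to 199 CPM.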

How the results depend on the processing

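The medians of the accessory subunits and assembly factors stayed below 0 in every alternative. DESeq2 gave 8 Nduf genes with an adjusted p under 0.05 where edgeR gave 0; the cause was not tested. Unadjusted calls numbered 8 with log2 TPM at either pseudocount and 0 within R2 (where 6.22% of all genes were called), against 19 in the main fit. No share over all genes is given for the log2 TPM fits, so their 8 calls are a count only. The cause of these differences was not tested. The core median was -0.19 and -0.20 with log2 TPM (pseudocounts 1 and 0.1) and -0.17 with the GC trend removed. The accessory median was -0.28 and -0.28 with log2 TPM and -0.46 with the GC trend removed. With log2 TPM the core and accessory medians thus lay much closer together than the 0.015 and -0.40 of the main fit. Without both naïve control 6 and laser treated 5 there were 23 adjusted calls, all lower (54.8%, against 1.71% of all genes). The 31 unadjusted calls of that fit are given without a share over all genes.

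With single libraries left out, adjusted calls numbered 0 to 0 and unadjusted calls 13 to 30. The 30 came without laser treated 5 (71.4%, against 17.7% of all genes). For the other fits no share over all genes is given. The medians ranged from -0.096 to 0.050 (core), -0.70 to -0.30 (accessory) and -0.46 to -0.28 (assembly factors). Ndufa10 then ranged from -0.046 to 0.069, Ndufa8 from -0.065 to 0.067, Ndufs1 from -0.042 to 0.075, Ndufs7 from -0.096 to 0.14 and Ndufs8 from -0.15 to 0.013.

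Of the genes with an unadjusted p under 0.05, Ndufb2 turned sign with log2 TPM (1.00 and 1.01 at pseudocounts 1 and 0.1). The other turns were in genes above that level. With log2 TPM these were Ndufs6 (0.71 and 0.81), Ndufv3 (0.31 and 0.31), Ndufa9 (0.027 and 0.027), Ndufa8 (-0.032 and -0.032) and Ndufs1 (-0.17 and -0.17); with voom Ndufa8 (-0.0086) and Ndufs7 (-0.0038); within R1 Ndufa9 (0.021) and Ndufs8 (0.049); within R2 Ndufv3 (0.10), Ndufa6 (0.021), Ndufb7 (0.026), Ndufa3 (0.14), Ndufa11 (0.038), Ndufa10 (-0.039), Ndufa8 (-0.017) and Ndufs1 (-0.047). With the GC trend removed they were Ndufa10 (-0.0073), Ndufa8 (-0.12), Ndufaf1 (0.10) and Ndufs7 (-0.17); with the length trend removed Ndufa7 (0.012), Ndufa6 (0.22), Ndufb7 (0.15), Ndufs5 (0.0063), Ndufa3 (0.12), Ndufa11 (0.21), Ndufs8 (0.12) and Ndufs1 (-0.010); without both libraries named above Ndufa8 (-0.034), Ndufs7 (-0.11) and Ndufs1 (-0.0046).

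With the replicate number as a block, 23 Nduf genes had an unadjusted p under 0.05 (54.8%, against 17.4% of all genes) and 0 an adjusted one, the accessory median was -0.59, and Ndufs1 was at -0.0016. The labels do not say whether the numbers pair the samples. Same-numbered deviations correlated at -0.0093, 0.12, 0.28, -0.0094 and -0.0084, and 2 of 5 laser treated libraries correlated best with their own number. These few correlations cannot decide whether same-numbered samples shared a batch. At this depth and number of libraries, standard errors from 0.10 (Ndufv1) to 0.70 (Ndufa4l2) on the log2 scale set the smallest difference that could be resolved.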

Other observations

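Genes whose promoter window held NRF1 letters spanned nearly the whole range of the accessory class, from Ndufa5 at a log2 fold change of -0.97 and Ndufb4 at -0.94 to Ndufa8 at 0.023, a description of 9 genes.

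The accessory subunits that did not share the common pattern across libraries, Ndufa8, Ndufa9 and Ndufa10, had correlations of 0.39, 0.41 and 0.079 with the mean of the other accessory subunits over the 11 libraries, against 0.90 or more for each of the other 26. Ndufv2 was the core subunit that followed the accessory mean most closely (r = 0.86), ahead of Ndufs8 (0.81) and Ndufs7 (0.80). These genes were singled out after their values were seen.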
